A study of Mus musculus with 6 samples.

Results

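MiR-140, miR-455 and miR-335 are 3 microRNAs best known from cells of mesenchymal origin such as chondrocytes, fibroblasts and fat precursors. They were chosen by name, with both strands of each hairpin, which gave 6 mature miRNAs (mmu-miR-140-5p, mmu-miR-140-3p, mmu-miR-455-5p, mmu-miR-455-3p, mmu-miR-335-5p and mmu-miR-335-3p) of the 1390 in the table of miRNA read counts. The choice was made with earlier results of these data known. The labels call the molecule polyA RNA and name RNA library kits, so how the short RNAs were captured is not clear from them. All 6 were present and all 6 passed the filter on low counts that left 519 miRNAs for testing. The counts come from whole thymus of C57BL wild-type mice aged 5 weeks. The irradiated group (n = 3 mice) received a single 6 Gy dose of X-rays at 800 cGy/min from 40 cm, and its thymus was taken 24 h later. The control group (n = 3 mice) was left without irradiation. No transgene or other agent is named in the labels. Whole-tissue libraries do not show which cells of the thymus carried a miRNA. Library totals ranged from 7730641 to 9287017 counts.

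A miRNA hairpin is cut into a short duplex, and 1 strand of it, or both, is loaded into an Argonaute protein and lowers the output of messenger RNAs that match its seed. MiR-140 lies in the ubiquitin ligase gene Wwp2 and is induced by the cartilage factor SOX9. MiR-455 lies in the fibrillar collagen gene Col27a1 and is known from cartilage and from the development of brown fat. MiR-335 lies in Mest, an imprinted gene read from the paternal copy, and is used as a marker of mesenchymal progenitor cells. In the thymus such cells form the capsule, the septa and the fibroblasts around vessels, while most cells are thymocytes, which are highly sensitive to radiation.

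The mature sequences show which positions each strand would use to recognise a target. They are RefSeq sequences on GRCm38.p6, available here for 5 of the 6 members and identical to those in the deposited table, with the seed (bases 2 to 8) in capitals.
miR-140-3p: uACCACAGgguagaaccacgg
miR-455-5p: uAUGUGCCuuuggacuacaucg
miR-455-3p: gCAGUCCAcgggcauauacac
miR-335-5p: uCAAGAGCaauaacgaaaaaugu
miR-335-3p: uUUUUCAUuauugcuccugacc

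No 2 of these 5 strands share a seed. Among the known miRNAs of the table, miR-140-3p shares its seed with miR-497b and miR-455-5p shares its seed with miR-5129-3p, and the other 3 seeds occur once. MiR-497b was tested and had 1.04 CPM in irradiated and 2.94 CPM in control libraries on average (log2 fold change −1.47, edgeR adjusted p of 0.0601). MiR-5129-3p did not pass the low-count filter. CPM are counts scaled to a common library size with trimmed-mean (TMM) factors.

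All 3 hairpins lie on the plus strand, as do their host genes, in GENCODE M21 (GRCm38). Mir140 is at chr8:107551244-107551313, within Wwp2, in an intron of 3 of the 4 Wwp2 transcripts that span it and in an exon of the fourth. Mir455 is at chr4:63256851-63256932, in an intron of all 4 Col27a1 transcripts that span it. Mir335 is at chr6:30741299-30741396, in an intron of all 7 Mest transcripts that span it. The miR-335 hairpin is shown whole, with its 5p strand (first) and 3p strand (second) in capitals, because both of its strands passed the test, the 3p strand by a narrow margin that most alternatives removed.
Mir335 hairpin: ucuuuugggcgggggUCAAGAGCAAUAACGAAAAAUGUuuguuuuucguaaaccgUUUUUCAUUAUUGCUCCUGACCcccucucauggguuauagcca

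The 3 hairpins differed widely in abundance, and the 2 strands of each were far from equal for miR-140 and miR-455. A miRNA read covers the whole molecule of 21 to 23 bases, so CPM were compared between miRNAs without a length correction. How well each sequence was captured is not known here. Differences in level between miRNAs, or between strands, are therefore differences in reads. MiR-140-3p was the leading member, with 5739 ± 3678 CPM in irradiated and 5611 ± 1102 CPM in control libraries (SD, n = 3 each), rank 21 and rank 25 by level among the 519 tested miRNAs. It held 79.1% to 90.9% of the members' counts in irradiated libraries and 88.2% to 90.8% in control libraries. MiR-455-5p and miR-140-5p came next, at 376 and 320.1 CPM on average in irradiated and 360 and 237 CPM in control libraries, and their values overlapped in both groups. MiR-455-3p averaged 55.7 CPM in irradiated and 29.9 CPM in control libraries. The miR-335 strands were lowest, at 13.4 CPM (5p) and 12.4 CPM (3p) in irradiated libraries and 3.87 CPM (5p) and 5.67 CPM (3p) in control libraries, and the strands overlapped each other in irradiated libraries. In control libraries every 3p value lay above every 5p value, by a small margin. The detection limit, taken as 3 counts, was between 0.278 and 0.428 CPM depending on library size, and every member was above it in every library. This limit covers counting error only.

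**Figure D1:**
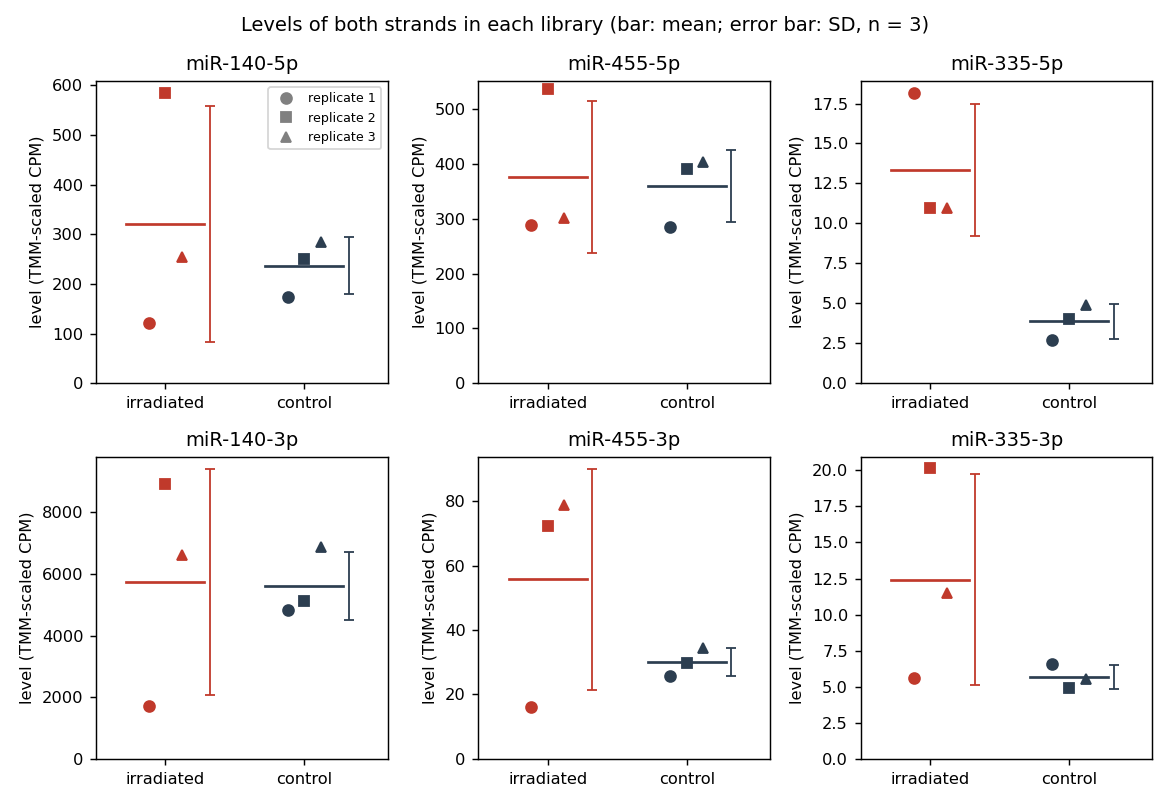
Level of each strand in TMM-scaled CPM (vertical axes, starting at 0) in 3 irradiated and 3 control libraries, with symbols for the replicate number, a bar for the mean and an error bar for the SD. MiR-335-5p shows no overlap between groups (10.9 to 18.1 CPM in irradiated, 2.71 to 4.91 CPM in control libraries), while irradiated replicate 1 is the lowest of the 6 libraries for both miR-140 strands and for miR-455-3p.

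The 6 members together held 0.191%, 0.994% and 0.737% of all counts in irradiated replicates 1, 2 and 3, against 0.439%, 0.807% and 0.753% in control replicates 1, 2 and 3. The groups overlapped, with means of 0.641% ± 0.410 in irradiated and 0.666% ± 0.199 in control libraries (SD, n = 3 each, exact two-sided permutation p of 0.8). No p under 0.1 is possible with 3 against 3 libraries.

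Of the 6 members, 2 rose after irradiation, both from the miR-335 hairpin, and 0 fell. In the same edgeR test 61.3% of all tested miRNAs passed an adjusted p of 0.05, and 27.7% passed it as higher in irradiated libraries. The levels of irradiated and control libraries did not overlap for 1 member, miR-335-5p, whereas they did not overlap for 68.6% of all tested miRNAs. The 4 strands of miR-140 and miR-455 did not pass. In whole tissue, a change in the number of cells of a type and a change in RNA per cell cannot be told apart. CPM are relative to the other miRNAs of a library. A rise here is therefore a rise relative to them, and does not show more molecules per thymus.

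MiR-335-5p had 18.1, 10.98 and 10.94 CPM in irradiated replicates 1, 2 and 3, against 2.71, 3.99 and 4.91 CPM in control replicates 1, 2 and 3. Every irradiated library was above every control library, and irradiated replicate 1 was the highest. The strand rose by a log2 fold change of 1.78 ± 0.37 (SE, 95% interval 0.94 to 2.61, edgeR adjusted p of 0.0027), which is 3.42-fold. These levels rest on 92 to 139 reads in irradiated and 19 to 43 reads in control libraries. The call did not depend on any single library, and the change ranged from 1.48 without irradiated replicate 1 to 2.11 without control replicate 3.

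MiR-335-3p had 5.61, 20.2 and 11.5 CPM in irradiated replicates 1, 2 and 3, against 6.56, 4.92 and 5.52 CPM in control replicates 1, 2 and 3. Irradiated replicates 2 and 3 were above all controls, and replicate 1 lay among them. The strand rose by 1.14 ± 0.45 (SE, 95% interval 0.13 to 2.14) on the log2 scale, with an edgeR adjusted p of 0.0499 that is just under the threshold. The call was lost without irradiated replicate 2 (0.81, edgeR adjusted p of 0.0931) or 3 (1.19, 0.0501). It was also lost without control replicate 1 (1.27, edgeR adjusted p of 0.0614), 2 (1.03, 0.160) or 3 (1.18, 0.0839). It was lost as well with the replicate number as a block (0.99, edgeR adjusted p of 0.133), with library totals as the scaling (1.04, 0.0911) and in limma-voom (0.96, 0.0932). The call was kept without irradiated replicate 1 (1.44, edgeR adjusted p of 0.0021), with median-of-ratios (1.21, 0.0280) and with upper-quartile factors (1.52, 0.0085). Leaving out the low-count filter (1.06, edgeR adjusted p of 0.0314) or the most abundant miRNA (1.30, 0.0227) also kept it. So did DESeq2 (1.15, DESeq2 adjusted p of 0.0353). Of the miRNAs with an adjusted p in the authors' deposited table, 43.9% are under 0.05. The authors' deposited table gives miR-335-5p a log2 fold change of 1.87 with an adjusted p of 0.000197, and the authors' deposited table gives miR-335-3p 1.15 with 0.0353.

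MiR-140-3p had 1705, 8906 and 6607 CPM in irradiated replicates 1, 2 and 3, against 4847, 5111 and 6874 CPM in control replicates 1, 2 and 3. Irradiated replicate 1 was the lowest of the 6 libraries and irradiated replicate 2 the highest, so the groups overlapped fully. The log2 fold change was 0.03 ± 0.49 (SE, 95% interval −1.07 to 1.14, edgeR adjusted p of 0.959). The sign turned with library totals (−0.079) and in limma-voom (−0.26), and without irradiated replicate 2 (−0.21) or 3 (−0.097) or control replicate 1 (−0.043) or 2 (−0.048). An interval this wide does not show that the level was the same in both groups.

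MiR-140-5p had 122, 584 and 255 CPM in irradiated replicates 1, 2 and 3, against 174, 251 and 285 CPM in control replicates 1, 2 and 3. The order of the irradiated libraries was that of the other strand, lowest in replicate 1 and highest in replicate 2. Its log2 fold change was 0.43 ± 0.49 (SE, 95% interval −0.67 to 1.53) and did not pass (edgeR adjusted p of 0.451). Without irradiated replicate 1 it passed (0.77, edgeR adjusted p of 0.0368), and without irradiated replicate 2 its sign turned (−0.11, 0.787).

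MiR-455-5p had 289, 537 and 302 CPM in irradiated replicates 1, 2 and 3, against 284, 391 and 403 CPM in control replicates 1, 2 and 3. The groups overlapped, and only irradiated replicate 2 lay above every control. Its log2 fold change was 0.06 ± 0.31 (SE, 95% interval −0.63 to 0.75, edgeR adjusted p of 0.872), the narrowest interval among the 6 members. The sign turned with library totals (−0.11), and without irradiated replicate 2 (−0.071) or control replicate 1 (−0.041).

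MiR-455-3p had 16.2, 72.2 and 78.7 CPM in irradiated replicates 1, 2 and 3, against 25.7, 29.8 and 34.4 CPM in control replicates 1, 2 and 3. Irradiated replicates 2 and 3 were above all controls and irradiated replicate 1 was below all of them. The strand did not pass (0.90 ± 0.49 SE, 95% interval −0.20 to 1.99, edgeR adjusted p of 0.134). Without irradiated replicate 1 it passed (1.32, edgeR adjusted p of 0.000547). The authors' deposited table gives it a log2 fold change of 0.91 and an adjusted p of 0.0972.

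Levels spread more among irradiated than among control libraries for every member, by little for miR-335-5p. Over the 519 tested miRNAs the median SD of log2 CPM was 0.43 among irradiated and 0.27 among control libraries. It was 1.27 among irradiated and 0.27 among control libraries for miR-140-3p, 1.26 and 0.21 for miR-455-3p, and 1.13 and 0.37 for miR-140-5p, which places these strands at ranks 21, 22 and 28 for spread in the irradiated group. MiR-335-3p had 0.88 among irradiated and 0.19 among control libraries (rank 62 in the irradiated group). MiR-335-5p and miR-455-5p were closer to the medians (0.41 and 0.50 in irradiated, 0.38 and 0.28 in control libraries).

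**Figure D2:**
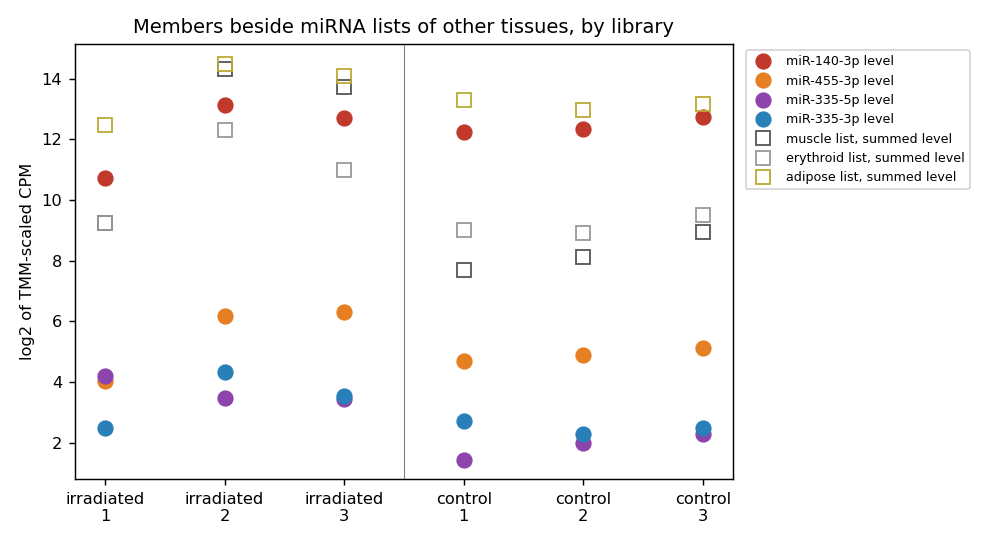
Log2 of TMM-scaled CPM for 4 members (filled circles) and log2 of the summed CPM of the muscle, erythroid and adipose lists (open squares) in each library. MiR-140-3p, miR-455-3p and miR-335-3p are lower in irradiated replicate 1 than in irradiated replicates 2 and 3, as are the 3 lists, while miR-335-5p is highest in irradiated replicate 1. The adipose sum is nearly all miR-378a-3p. The sums of the endothelial (nearly all miR-126a-3p), imprinted and myeloid lists, not drawn, are also lower in irradiated replicate 1. The sums of the mesenchymal, epithelial and thymocyte lists are not the lowest there, and most of the mesenchymal sum is miR-143-3p.

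The irradiated libraries also differed in miRNAs of other tissues. The muscle list (8 miRNAs such as miR-1a-3p, 4 of them tested, 3 higher, and 1 with no count in control libraries) summed to 608, 20176 and 13420 CPM in irradiated replicates 1, 2 and 3, against 207 to 487 CPM in control libraries. The erythroid list (4 tested, 3 higher) summed to 608, 5101 and 2026 CPM in irradiated replicates 1, 2 and 3, against 483 to 731 CPM in control libraries. The adipose list (3 tested, 1 higher), which holds miRNAs rich in brown fat, summed to 5663, 22938 and 17309 CPM in irradiated replicates 1, 2 and 3, against 7964 to 10074 CPM in control libraries. Nearly all of the adipose sum was miR-378a-3p, at 5653, 22846 and 17280 CPM in irradiated replicates 1, 2 and 3. MiR-378a-3p did not pass (edgeR adjusted p of 0.144). The listed miRNA that rose, miR-193b-3p, had at most 54.1 CPM in these libraries. In the adipose sum, as in miR-140-3p, irradiated replicate 1 was below all controls and irradiated replicate 2 was the highest library. The adipose sum therefore follows miR-378a-3p and is not a measure of the whole list. Low values in irradiated replicate 1 were not particular to these lists. In irradiated replicates 1, 2 and 3 the endothelial list, described below, summed to 15678, 24542 and 18194 CPM. Nearly all of that sum was miR-126a-3p, and miR-126a-5p (814, 867 and 629 CPM in the same order) was lowest in irradiated replicate 3. The imprinted list, also described below, summed to 1165, 2407 and 1429 CPM. A myeloid list (miR-223 strands and miR-511-3p, 3 tested, 1 higher) summed to 49.2, 110 and 163 CPM. The mesenchymal, epithelial and thymocyte lists were not lowest in irradiated replicate 1. The thymocyte list, which defines the labelled tissue, summed to 6969 to 11507 CPM in irradiated and 102268 to 169375 CPM in control libraries, and 6 of its 7 tested miRNAs fell. The muscle and red-cell signal, the adipose sum and the fall of thymocyte miRNAs were not tested for their part in the members' values. With irradiated replicate 1 as the only irradiated library, a comparison chosen after seeing the data, the log2 change was 2.42 for miR-335-5p and −1.51 for miR-140-3p. These are values with no test, since that library was already the highest for miR-335-5p and the lowest for miR-140-3p.

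The 2 strands of a hairpin are read in the same library, so their ratio does not depend on library scaling. It was compared between groups with limma over all 146 miRNAs with both strands tested, of which 12.3% passed. None of the 3 members' ratios passed (0 of 3). At an unadjusted limma p under 0.05 the count was also 0 of 3, beside 40 of all 146 pairs. The 18 passing pairs became 31 without irradiated replicate 1 and between 0 and 1 without any 1 of the other 5 libraries (28 to 40 at an unadjusted p under 0.05).

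**Figure D3:**
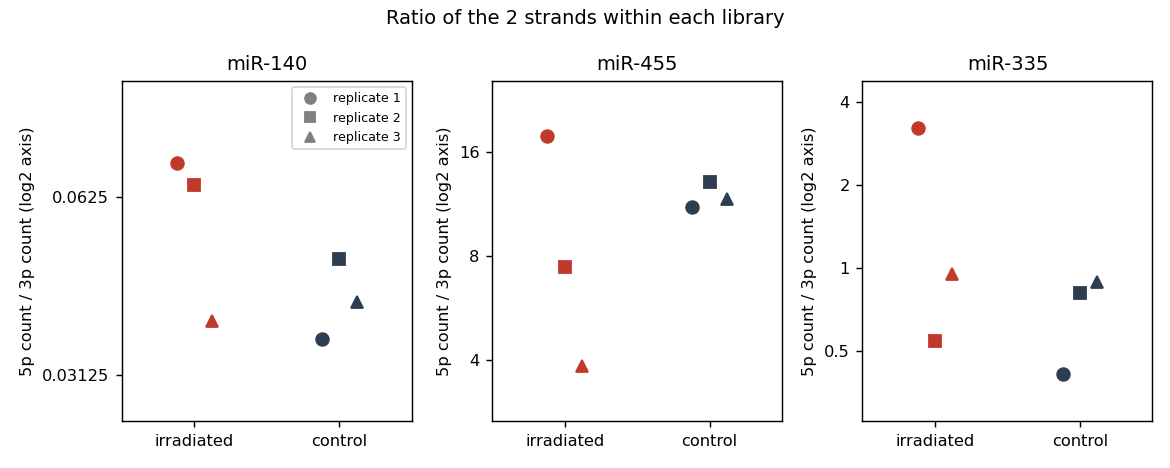
Ratio of 5p to 3p counts within each library (vertical axes on a log2 scale) for the 3 hairpins, irradiated libraries on the left and control libraries on the right. The ratios of miR-455 span 3.84 to 17.9 in irradiated libraries and 11.1 to 13.1 in control libraries.

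MiR-140 was read mostly from its 3p strand, at 14.0, 15.3 and 25.9 reads of 3p per read of 5p in irradiated replicates 1, 2 and 3, against 27.8, 20.4 and 24.1 in control replicates 1, 2 and 3. The groups overlapped, and the log2 ratio of 5p to 3p changed by 0.43 ± 0.32 (SE, 95% interval −0.31 to 1.18, limma adjusted p of 0.398). MiR-455 was read mostly from its 5p strand, which made up 94.7%, 88.1% and 79.3% of its reads in irradiated replicates 1, 2 and 3, against 91.7%, 92.9% and 92.1% in control replicates 1, 2 and 3. Its control libraries were nearly alike, and irradiated replicate 1 lay above them while replicates 2 and 3 lay below. The change was −0.58 ± 0.53 (SE, 95% interval −1.82 to 0.66, limma adjusted p of 0.486), and it was −1.16 without irradiated replicate 1 (limma adjusted p of 0.0609) and −0.05 without irradiated replicate 3 (0.961).

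MiR-335 had no dominant strand. Its 5p strand made up 76.4%, 35.2% and 48.8% of its reads in irradiated replicates 1, 2 and 3, against 29.2%, 44.8% and 47.1% in control replicates 1, 2 and 3. The 5p strand led in 1 library, irradiated replicate 1, and the 3p strand in the other 5. The log2 ratio changed by 0.82 ± 0.67 (SE, 95% interval −0.77 to 2.41, limma adjusted p of 0.435), and by 0.10 without irradiated replicate 1. The spread of this ratio among irradiated libraries (SD 1.31) was at rank 9 of 146 pairs, and that of miR-455 (SD 1.11) at rank 15.

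Most of the other connective-tissue miRNAs examined rose, and so did several of other resident thymic cells. A list of 15 mesenchymal and smooth-muscle miRNAs (the miR-199, miR-214, miR-143, miR-145, miR-99a, miR-100, miR-125b, miR-195a and miR-497a strands) had 14 tested members, of which 12 rose, 0 fell and 2 did not pass. Their median log2 change was 1.48, against 0.01 over all tested miRNAs. The epithelial list (4 of 7 higher, 0 lower, median 1.32) summed to 20681 to 28826 CPM in irradiated and 10193 to 13175 CPM in control libraries. The endothelial list (1 of 2 higher) summed to 15678 to 24542 CPM in irradiated and 5059 to 5756 CPM in control libraries. Most of this sum was miR-126a-3p (2.02, edgeR adjusted p of 0.000151), and miR-126a-5p did not pass (0.085, 0.768). The most abundant of the mesenchymal list, miR-143-3p of smooth muscle and fibroblasts, averaged 251202 CPM in irradiated and 151488 CPM in control libraries. MiR-143-3p did not pass (0.73, edgeR adjusted p of 0.118). MiR-100-5p rose by 1.33 (edgeR adjusted p of 0.0015), miR-99a-5p by 1.96 (0.000198) and miR-125b-5p by 0.79 (0.0176).

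**Figure D4:**
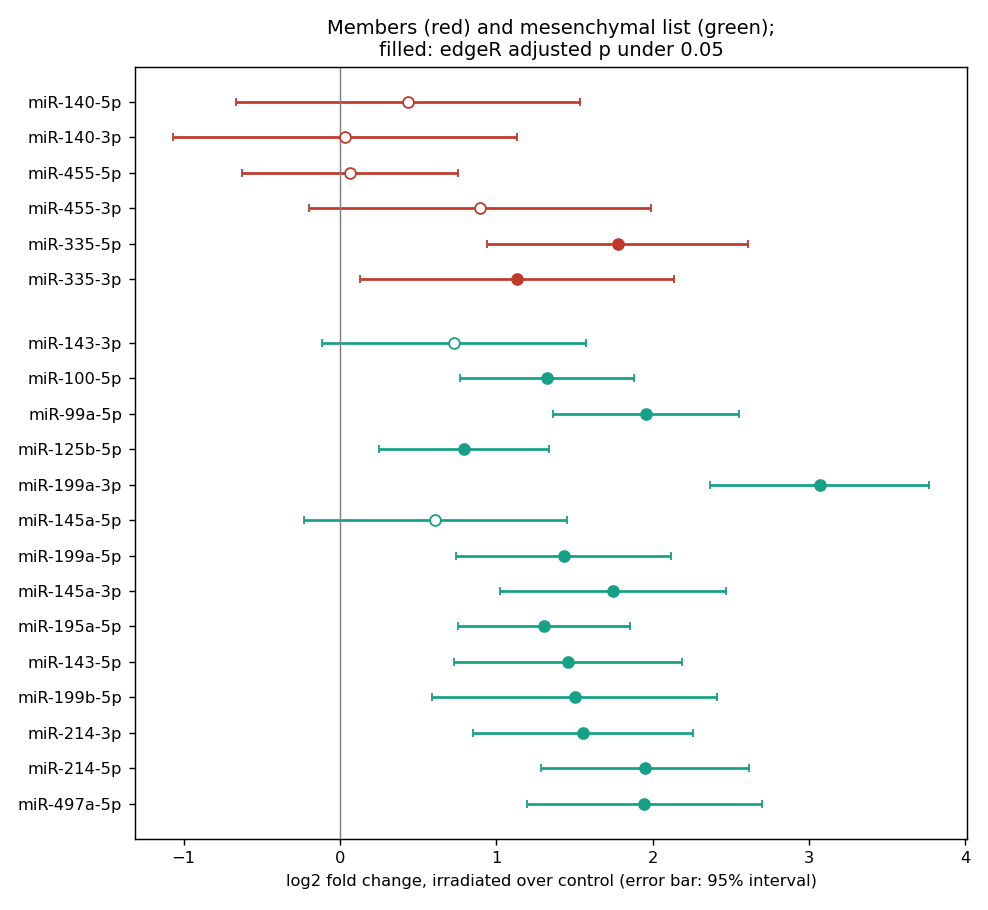
Log2 fold change of irradiated over control with its 95% interval (horizontal axis) for the 6 members and the 14 tested miRNAs of the mesenchymal list, with filled circles where the edgeR adjusted p was under 0.05. The 4 strands of miR-140 and miR-455 lie between 0.03 and 0.90, and miR-335-5p at 1.78 lies among the listed miRNAs, whose changes run from 0.61 to 3.07.

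The distance of each hairpin from this list was then measured within each library, as the mean log2 CPM of its 2 strands minus the mean log2 CPM of the list, with 0.5 added to each CPM before taking logs. Library scaling then enters only through that 0.5, which weighs most on the low miR-335 levels. For miR-140 it was −0.14, 1.64 and 1.24 in irradiated replicates 1, 2 and 3, against 2.05, 2.64 and 2.62 in control replicates 1, 2 and 3. Every irradiated library was below every control, with a mean difference of −1.52 (−1.001 without irradiated replicate 1). For miR-455 it was −2.85, −1.89 and −1.83 in irradiated replicates 1, 2 and 3, against −1.36, −0.74 and −0.94 in control replicates 1, 2 and 3, a mean difference of −1.18 with no overlap. For miR-335 it was −5.56, −5.57 and −5.56 in irradiated replicates 1, 2 and 3, against −5.54, −5.21 and −5.32 in control replicates 1, 2 and 3, a mean difference of −0.21. This small difference was not stable. With nothing added before log2 it was −0.13 and the groups overlapped, with control replicate 1 (−5.70) below all irradiated libraries (−5.63 to −5.62, exact two-sided permutation p of 0.4). It was −0.11 with the counts of both strands summed (exact permutation p of 0.3) and −0.13 without control replicate 2. The list was chosen with earlier results of these data known, and 12 of its 14 tested miRNAs rose. A hairpin that changed little lies further below such a list, or less far above it, in irradiated libraries. These distances are therefore not evidence separate from the fold changes above.

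**Figure D5:**
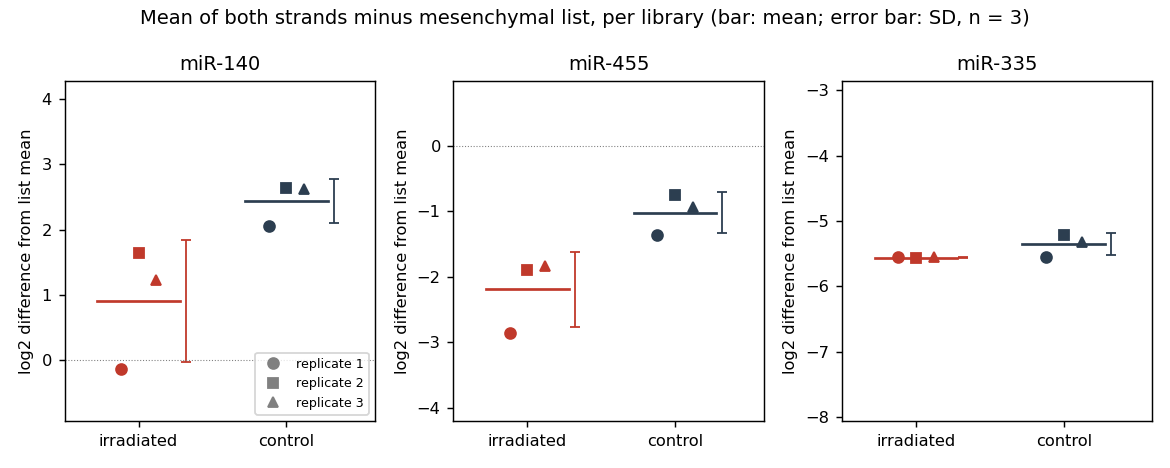
Mean log2 CPM of both strands minus the mean of the mesenchymal list in each library (vertical axes of equal height), with a bar for the mean and an error bar for the SD (n = 3). The irradiated libraries of miR-140 and miR-455 lie 1.52 and 1.18 below the controls on average, and those of miR-335 lie 0.21 below, a difference that shrank to 0.13 with nothing added before log2. The list was chosen with earlier results of these data known.

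The same measure was taken between the hairpins. MiR-140 minus miR-335 was 6.47 ± 0.94 in irradiated and 7.79 ± 0.18 in control libraries (SD, n = 3 each), and miR-455 minus miR-335 was 3.37 ± 0.58 in irradiated and 4.34 ± 0.15 in control libraries, both with no overlap. Without irradiated replicate 1 these 2 differences between the groups were −0.79 in place of −1.32 and −0.64 in place of −0.97. MiR-140 minus miR-455 overlapped, at 3.10 ± 0.41 in irradiated and 3.45 ± 0.10 in control libraries (SD, n = 3 each). The difference of −0.35 between the groups became −0.15 with irradiated replicate 1 left out and −0.56 with irradiated replicate 2 left out. Over these 6 differences the exact two-sided permutation p was 0.1 for 5, the smallest that 3 against 3 libraries allow, and 0.3 for miR-140 minus miR-455. The adjusted values were 0.12 and 0.3, so no difference passed.

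Mest is imprinted, and miR-335 was therefore also set beside 42 miRNAs of other imprinted loci, from Dlk1-Dio3, Gnas, Igf2 and H19. Of 24 tested, 16 rose, 2 fell and 6 did not pass, and their median log2 change was 1.66. All 16 that rose belong to 1 locus, Dlk1-Dio3, which held 22 of the 24 tested, and the 2 that fell belong to Gnas. The listed miRNAs of Igf2 and H19 (2 each) did not pass the low-count filter, so the counts say nothing of imprinted loci in general. The 4 most abundant rose, with miR-379-5p at 464 CPM in irradiated and 87.3 CPM in control libraries on average (2.41, edgeR adjusted p of 0.000274), miR-411-5p (1.47, 0.0091), miR-127-3p (1.37, 0.0065) and miR-434-5p (2.07, 0.0020). The 2 that fell, named after their values were seen, were miR-298-5p (−4.76, edgeR adjusted p of 0.000359) and miR-296-3p (−3.95, 4.7e-05) of the Gnas locus.

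The miRNAs whose log2 levels followed each member most closely over the 6 libraries differed between the 2 strands of miR-335. These are descriptions over points that share libraries, groups and scaling. MiR-335-5p was closest to miR-27b-5p (Pearson r of 0.968), miR-195a-5p (0.964) and miR-146a-5p (0.960). MiR-335-3p was closest to the muscle miRNA miR-133a-3p (0.969), miR-203-5p (0.968) and the red-cell miRNA miR-451a (0.967). MiR-455-3p was closest to miR-27a-5p (0.976), miR-378a-3p (0.946) and miR-378c (0.946). MiR-140-3p followed miR-30c-5p (0.925), miR-361-3p (0.907) and miR-187-3p (0.885). MiR-140-5p followed miR-1843b-3p (0.941), miR-365-3p (0.922) and miR-187-3p (0.913). The closest to miR-455-5p was miR-140-5p, a strand of another hairpin (0.901), followed by miR-129-5p (0.832) and miR-129b-3p (0.830). Between the strands of a hairpin r was 0.870 for miR-140, 0.488 for miR-455 and 0.410 for miR-335.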

How the data were processed

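MiRNA counts of 6 thymus libraries were analysed. The labels call the molecule polyA RNA, and the small-RNA step is not described in them. The authors' deposited table holds whole-number read counts per mature miRNA, per the file headers. The authors' TPM values, per the file headers, were not used in any result. The deposited log2 fold change and the p-value columns (p and adjusted p) are the authors' own, and the submitters' processing notes name DESeq2 1.10.1. The authors' normalized group means, a signal column per the file headers, were copied and not tested. Which aligner, counter and genome build lie behind the counts is not given in the sources used here. Another 6 columns of counts belong to groups absent from the labels and were left aside.

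The test of irradiated against control used edgeR 4.0.16 under R 4.3.3 (TMM factors, filterByExpr, robust quasi-likelihood, Benjamini-Hochberg over all 519 tested miRNAs, threshold 0.05). Strand ratios, as log2 with 0.5 added to each count, were tested with limma 3.58.1 over 146 pairs. Single values were compared by exact permutation tests. The labels give n = 3 mice per group. The edgeR and strand-ratio steps were tested on simulated counts, and the permutation tests were not. Of named non-members, the 3 most like each member (mean of at least 10 CPM, 0.5 added to CPM before log2, as in the differences between hairpins) and the 4 most abundant tested miRNAs of 2 lists are given. Alternatives were other scaling, filters, DESeq2 1.42.0, limma-voom, the replicate number as a block and leaving out libraries. The members and lists were chosen with earlier results of these data known.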

Additional observations from a re-analysis of the deposited data

How the results depend on the processing

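The rise of miR-335-5p kept its direction and its call under all 14 alternatives that gave a value (1.48 to 2.24, and 1.48 to 2.11 without any 1 library). Neither miR-335 strand was tested with a mean of at least 10 CPM. MiR-335-3p stayed positive but lost its call with library totals (1.04), limma-voom (0.96) and the replicate block (0.99), and ranged from 0.81 to 1.44 without 1 library. MiR-455-3p passed with upper-quartile factors (1.295) and ranged from 0.55 to 1.32 without 1 library. MiR-140-5p ranged from −0.11 to 0.77 without 1 library. MiR-140-3p turned negative with library totals (−0.079), a 10 CPM minimum (−0.23), no filter on low counts (−0.041), limma-voom (−0.26) and the replicate block (−0.24), and ranged from −0.21 to 0.44 without 1 library. MiR-455-5p turned negative with library totals (−0.11), a mean of at least 10 CPM (−0.19), and ranged from −0.071 to 0.24 without 1 library. The cause was not tested. With irradiated replicate 1 as the only irradiated library, chosen after seeing the data, the changes were −0.75 (miR-140-5p), −1.51 (miR-140-3p), −0.11 (miR-455-5p), −0.68 (miR-455-3p), 2.42 (miR-335-5p) and 0.19 (miR-335-3p), given as values with no test. The 6 differences between hairpins and list kept their sign in every alternative, including nothing added before log2, which was chosen after seeing the data. The members' share of counts differed by −0.026 percentage points, by 0.073 without the most abundant miRNA, miR-21a-5p, and by −0.20 to 0.20 without 1 library.

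Of all tested miRNAs 318 passed, and 210.0 of 313 with a mean of at least 10 CPM, where fewer were tested. The median log2 change of all miRNAs was 0.01 with TMM, 0.12 with median-of-ratios, 0.44 with upper-quartile factors and −0.13 with library totals, and higher calls were 45.3%, 50.5%, 59.7% and 38.4% of all calls in the same order. The limma strand-ratio count ranged from 0 to 31 without 1 library (28 to 52 at an unadjusted p under 0.05), and no member's ratio passed in any alternative. The replicate numbers were not taken as pairs. Same-numbered libraries had correlations of 0.12, −0.02 and 0.25 in their deviations, and differently numbered libraries had −0.27 to 0.11. These values do not settle whether the libraries were paired. With the replicate block 298 miRNAs and 27 strand pairs passed.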
